A study of Mus musculus with 2 samples.

Results

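The nuclear genes of the mitochondrial oxidative phosphorylation complexes were read on Affymetrix mouse arrays in differentiated C2C12 cells, a mouse myoblast line whose cells fuse into myotubes in low serum. The cells carried either a hairpin against Lrrfip1 (shLrrfip1a, 1 array) or a control hairpin (spelled shLCUI in the sample labels and shLUCI in the design text, 1 array), and both were read after 5 days of differentiation in 2% horse serum. Lrrfip1 encodes a nucleic acid-binding protein, and the study sought the genes that differ after its depletion. Each group was 1 array of 1 hairpin, so differences are described by their size, with no p-value or error between cultures. Whether the cells were a clone or a pool, and how the hairpin was delivered, is not given in the sources used here. In such bulk RNA a change per cell and a change in the share of myotubes cannot be told apart.

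Members were chosen by gene symbol alone: Nduf genes, Sdha to Sdhd, Uqcr genes, Cyc1, Cox4 to Cox8 genes and Atp5 genes. The rule found 91 of 18193 genes, read by 180 probe sets. A probe set is a group of short probes for the same stretch of transcript, and 51 of the members had several of them, up to 6. Where a gene had several, the brightest over both arrays was taken for it. Of the 91, 84 had such a probe set above the median level of all probe sets (an intensity of 52.5), and the 7 below it were Ndufb4, Cox7c, Cox7a1, Cox4i2, Cox6b2, Cox7b2 and Ndufa4l2. Subunits whose probe sets carry several gene symbols, such as Ndufs6 and Ndufa11, fall outside the rule, and Cox7b was not analysed here. Differences are given as log2(intensity + 16) of the shLrrfip1a array minus that of the control array, a scale that understates the change of dim genes.

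Oxidative phosphorylation passes electrons from NADH through complex I, or from succinate through complex II, to coenzyme Q, then through complex III and cytochrome c to complex IV, which reduces oxygen. Complexes I, III and IV pump protons, and complex V uses the gradient to make ATP. Most subunits are encoded in the nucleus, a few of complexes I, III, IV and V in mitochondrial DNA. Several subunits of complex IV exist as a form found in most tissues and a form of heart and skeletal muscle, and the supply of these complexes is known to grow as myoblasts become myotubes.

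Both arrays carried the markers of differentiated C2C12 cells. All 8 listed myotube markers were read and 7 lay above the level filter, with summed intensities of 12069 on the shLrrfip1a array and 13281 on the control array. The muscle actin Acta1 read 5220 in shLrrfip1a and 5586 in control. The 3 dividing-myoblast markers above the filter were all lower in shLrrfip1a, by -0.23 for Mki67, -0.32 for Top2a and -0.83 for Myf5. Pax7, the listed myoblast marker below the filter, read 22.6 in shLrrfip1a and 70.35 in control (-1.16). The part of any such shift in the values below was not tested. The 5 fibroblast markers all lay above the filter, with summed intensities of 16667 in shLrrfip1a and 17097 in control, and differed by between -0.42 (Col1a1) and 0.11 (Thy1). The 3 adipocyte markers read lay below the filter. Of the endothelial and macrophage markers, Kdr (118 in shLrrfip1a, 48.0 in control) and Adgre1 were above it. On the 3 probe sets of Lrrfip1, the shLrrfip1a intensities were 62.2% to 70.6% of the control values.

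The oxidative phosphorylation genes differed little between the arrays. The median difference over the 84 genes was -0.02, beside 0.00 over all 11439 genes above the filter, with 38 members higher and 46 lower. The members' differences lay between -0.44 and 0.32 with an SD over genes of 0.16, beside an SD of 0.32 over all genes. No member reached 1.5-fold in either direction on its chosen probe set, where 2.34% of all genes were past that size in the higher direction and 2.47% in the lower. None reached 2-fold either, beside 0.664% of all genes higher and 0.691% lower. Within 0.25 on the log2 scale (1.19-fold) lay 88.1% of the members and 70.4% of all genes. The members were mostly bright. Among genes above the 75th percentile of level, 91.0% of 78 members and 70.4% of all 6912 genes lay within that size. That filter, at an intensity of 153, does not match level. The median intensity of the 84 members was 1326 in shLrrfip1a and 1341 in control.

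**Figure D1:**
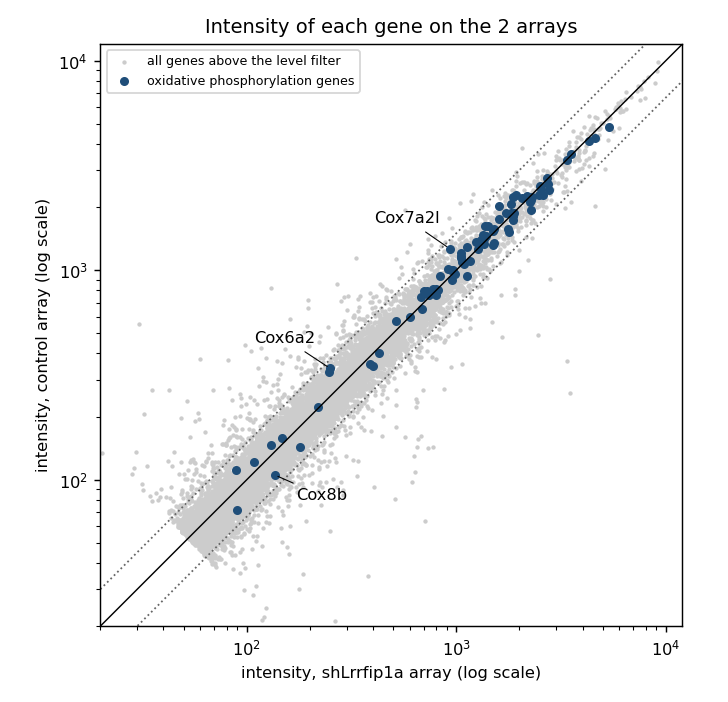
Intensity of each gene above the level filter on the shLrrfip1a array (horizontal, log scale) and on the control array (vertical, log scale), with the solid line at equal intensity and dotted lines at 1.5-fold. The 84 oxidative phosphorylation genes (blue) run along the line between intensities of 89.1 and 5370 on the shLrrfip1a array, inside the dotted lines.

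A size of 0.25, chosen after the values were seen, picked out 10 genes. The 4 that were higher were Ndufb1, Ndufs5, Cox8b and Cox8c, or 4.76% of the 84 members, beside 14.9% of all genes. The 6 that were lower were Cox7a2l, Cox6a2, Sdhc, Ndufa7, Ndufaf5 and Ndufv3, or 7.14% of the 84 members, beside 14.7% of all genes. Ndufa12 stood just outside at -0.249 (1363 in shLrrfip1a, 1623 in control). The count depended on the scaling, with 2 higher and 10 lower under median centring, beside 10.9% and 19.9% of all genes. Scaling to all spike-in controls gave 23 higher and 1 lower, beside 37.2% and 5.58% of all genes, so the members moved with the rest.

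Probe sets of 1 gene give the spread within an array, since they read the same RNA. Over the 48 members with several probe sets above the filter, the pooled SD of the difference between a gene's probe sets was 0.11, beside 0.17 over all 4847 such genes. In 32 of the 48, or 66.7%, the probe sets of the gene shared a direction, 21 lower and 11 higher. The share was 60.3% over all such genes. Of the 158 member probe sets above the filter, 45 are of the kinds that Affymetrix marks as able to bind related transcripts, and their median difference was -0.08, beside 0.00 for the other 113.

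**Figure D2:**
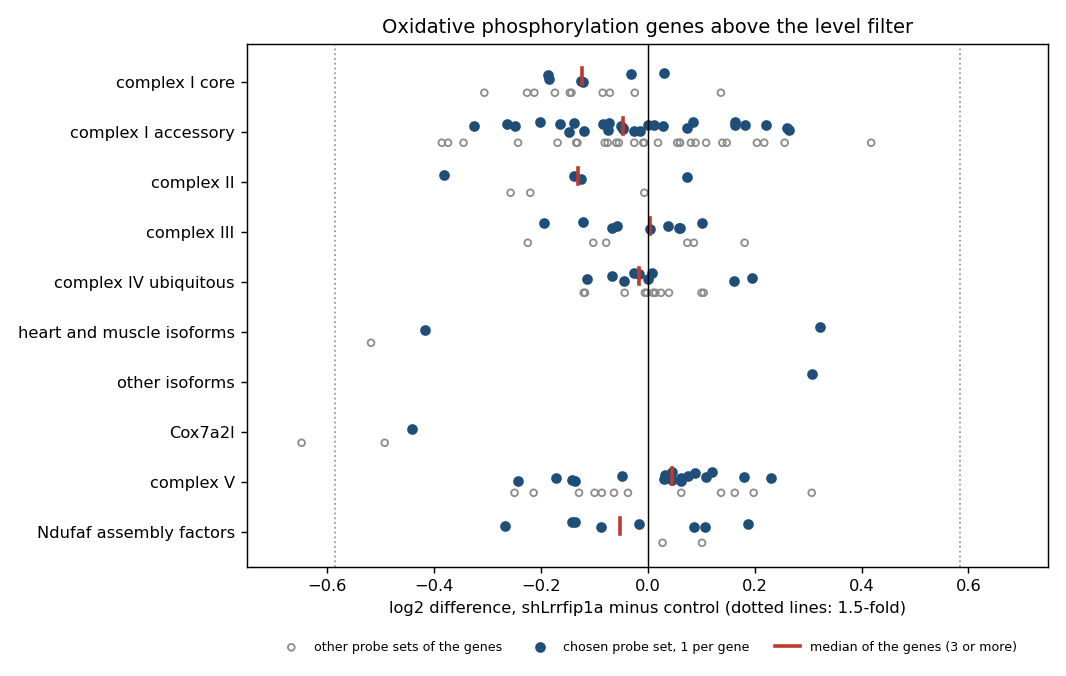
Log2 difference, shLrrfip1a minus control, of each member above the level filter, by complex. Filled points are the chosen probe set of a gene, open points its other probe sets, red lines the median over genes and dotted lines 1.5-fold. Complex I and II lie mostly left of 0, complexes III and IV around it and complex V mostly right of it, all with medians between -0.13 and 0.05.

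Complex I, the NADH dehydrogenase, had 33 subunits above the filter, with a median of -0.05, 12 higher and 21 lower. Relative to the median of all genes, the complex I median differed by -0.05 under the deposited scaling. That gap was -0.04 under quantile and -0.05 under loess normalization, which adjust by level. Median centring and the 3 spike-in scalings multiply an array by a constant, so they keep the gap nearly as it is by construction. The complex I median itself turned positive under the 3 spike-in scalings. The value was closer to 0 with other probe set rules, at -0.01 when a gene's probe sets were averaged and -0.01 without the probe sets that can bind related transcripts. The 6 core subunits, of the part that takes electrons from NADH to coenzyme Q, had a median of -0.12 and 5 of them were lower. Ndufv1, which holds the flavin site that accepts electrons from NADH, read 700.3 in shLrrfip1a and 799 in control (-0.19). All 3 of its probe sets were lower, by -0.07 to -0.31. Ndufv2, a neighbouring iron-sulfur subunit, read 1126 in shLrrfip1a and 1284 in control (-0.19), and was lower on 3 of 3 probe sets, by -0.02 to -0.19. These differences were about as large as the spread among the probe sets of the same genes.

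Ndufs1, the largest iron-sulfur subunit, read 679 in shLrrfip1a and 740 in control (-0.12). Ndufs7, which carries the last cluster before coenzyme Q, read 728 in shLrrfip1a and 795 in control (-0.13), with -0.15 on its other probe set. Ndufs3 was the core subunit with a positive difference (1361 in shLrrfip1a and 1333 in control, 0.03). Ndufs8 read 1069 in shLrrfip1a and 1093 in control (-0.03) on its chosen probe set. Its 6 probe sets spread between -0.23 and 0.14, the widest range in the core. Under the deposited scaling the core subunits lay slightly lower on the shLrrfip1a array, with no member past 0.19 on its chosen probe set.

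The 27 accessory subunits of complex I, which surround the core and are needed for its assembly and stability, had a median of -0.05, 11 higher and 16 lower. Ndufa7 had the lowest difference. It read 1605 in shLrrfip1a and 2015 in control (-0.33), and all 5 of its probe sets were lower, between -0.24 and -0.39. The SD over these probe sets, which share their RNA, was 0.06. Ndufv3 followed on its 1 probe set, with 1854 in shLrrfip1a and 2228 in control (-0.26). Ndufa12 was lower on 3 of 3 probe sets, between -0.13 and -0.25.

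In the other direction, Ndufs5 read 1125 in shLrrfip1a and 933 in control (0.27). A probe set shared by Ndufs5 and its pseudogene read 882 in shLrrfip1a and 775 in control (0.18). Ndufb7 read 2271 in shLrrfip1a and 1944 in control (0.22, with 0.20 on its other probe set). Ndufb6 read 1513 in shLrrfip1a and 1349 in control (0.16, with 0.26 on the other). Accessory subunits of 1 complex thus differed in both directions. Probe sets above the filter shared a direction within Ndufa7, Ndufa12, Ndufb7 and Ndufb6, while Ndufv3 and Ndufs5 each had 1 probe set of their own. In Ndufa3, Ndufa10, Ndufab1, Ndufb8 and Ndufc2, probe sets above the filter went in opposite directions. Ndufb1 read 89.3 in shLrrfip1a and 71.9 in control (0.26). Ndufs4, which is known for its mutation in Leigh syndrome, was another where probe sets disagreed. It differed by -0.16 on the chosen probe set (833 in shLrrfip1a and 935 in control) and 0.42 on a dim one (93.5 in shLrrfip1a and 65.9 in control).

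Complex II, succinate dehydrogenase, also works in the tricarboxylic acid cycle and has 4 nuclear subunits, all above the filter. Their median was -0.13, with 3 of 4 lower. The catalytic flavoprotein Sdha read 950.0 in shLrrfip1a and 902 in control (0.07), with -0.01 on its other bright probe set. The iron-sulfur subunit Sdhb read 1048 in shLrrfip1a and 1144 in control (-0.12). The membrane anchor Sdhc read 247 in shLrrfip1a and 327 in control (-0.38), with -0.22 on its other probe set. The second anchor, Sdhd, read 518 in shLrrfip1a and 571 in control (-0.14), with -0.26 on its other probe set. Both membrane anchors were lower on both of their probe sets. Relative to all genes the median of complex II differed by -0.14 under the deposited scaling, -0.14 under quantile and -0.13 under loess normalization. The scalings by a constant keep that gap nearly as it is by construction. The complex II median itself turned to 0.05 and 0.07 under scaling to all spike-in controls and to the B. subtilis controls.

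Complex III, the cytochrome bc1 complex, was level. Its 9 genes had a median of 0.00, with 5 higher and 4 lower, and none of them reached 0.25. Cyc1, the cytochrome c1 that hands electrons to cytochrome c, read 1887 in shLrrfip1a and 1881 in control (0.00). The Rieske iron-sulfur protein gene Uqcrfs1 read 1390 in shLrrfip1a and 1447 in control (-0.06). The core proteins Uqcrc1 (682 in shLrrfip1a, 655 in control) and Uqcrc2 (960 in shLrrfip1a, 1006 in control) differed by 0.06 and -0.07. Uqcrb had the highest difference, at 4585 in shLrrfip1a and 4272 in control (0.10). Uqcrq had the lowest, at 1423 in shLrrfip1a and 1630 in control (-0.19), but its dimmer probe set above the filter was higher (0.18).

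Of complex IV, cytochrome c oxidase, 10 subunits of the form found in most tissues were read and 9 lay above the filter. Their median was -0.02, 3 were higher and 6 lower, and none reached 0.25. Cox4i1, the largest nuclear subunit, read 2507 in shLrrfip1a and 2508 in control (0.00). Cox5b read 3536 in shLrrfip1a and 3577 in control (-0.02), and its 5 probe sets above the filter stayed between -0.04 and 0.10. Cox5a read 2049 in shLrrfip1a and 2219 in control (-0.11). Ndufa4, named as a complex I gene but known to be a subunit of complex IV, had the highest difference, with 2765 in shLrrfip1a and 2413 in control (0.20). Cox7c lay below the filter on both of its probe sets, and the brighter read 46.5 in shLrrfip1a and 56.9 in control.

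The 2 heart and muscle isoforms of complex IV above the filter lay outside the range of the common forms (-0.11 to 0.20), on opposite sides of it. They were also far dimmer, at 136 and 250 in shLrrfip1a, where the common forms read 1821 to 5370. Differences of at least 0.25 were found in 14.9% (higher) and 14.7% (lower) of all genes above the filter. Cox6a2, the muscle form of subunit 6a, read 250.1 in shLrrfip1a and 339 in control (-0.42). Its other probe set read 176 in shLrrfip1a and 259 in control (-0.52), so both were lower. Cox6a1, the form of other tissues, was higher on both of its probe sets, and the chosen one read 5370 in shLrrfip1a and 4800 in control (0.16). The 2 differences of this isoform pair were 0.58 apart (Cox6a2 minus Cox6a1, -0.58), a contrast within the arrays that a common scaling factor leaves nearly as it is.

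Cox8b, the muscle form of subunit 8, read 136 in shLrrfip1a and 105 in control (0.32) on its 1 probe set. That was the highest difference of any member above the filter. Cox8a, its counterpart in other tissues, read 1821 in shLrrfip1a and 1878 in control (-0.04), so that Cox8b minus Cox8a was 0.37. Cox7a1, the muscle form of subunit 7a, was below the filter at 27.6 in shLrrfip1a and 38.5 in control (-0.32), and a pseudocount of 1 or 64 gave -0.47 or -0.16. Its counterpart Cox7a2 read 2165 in shLrrfip1a and 2269 in control (-0.07). Of the 3 muscle forms, 2 were thus lower and 1 higher, and 1 of the lower ones was too dim to size. Of the 7 myotube markers above the filter, 5 were lower and 2 higher on the same arrays, with a median of -0.10. The extremes were Myog, a factor of terminal muscle differentiation (-0.38), and the muscle creatine kinase Ckm (0.38).

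**Figure D3:**
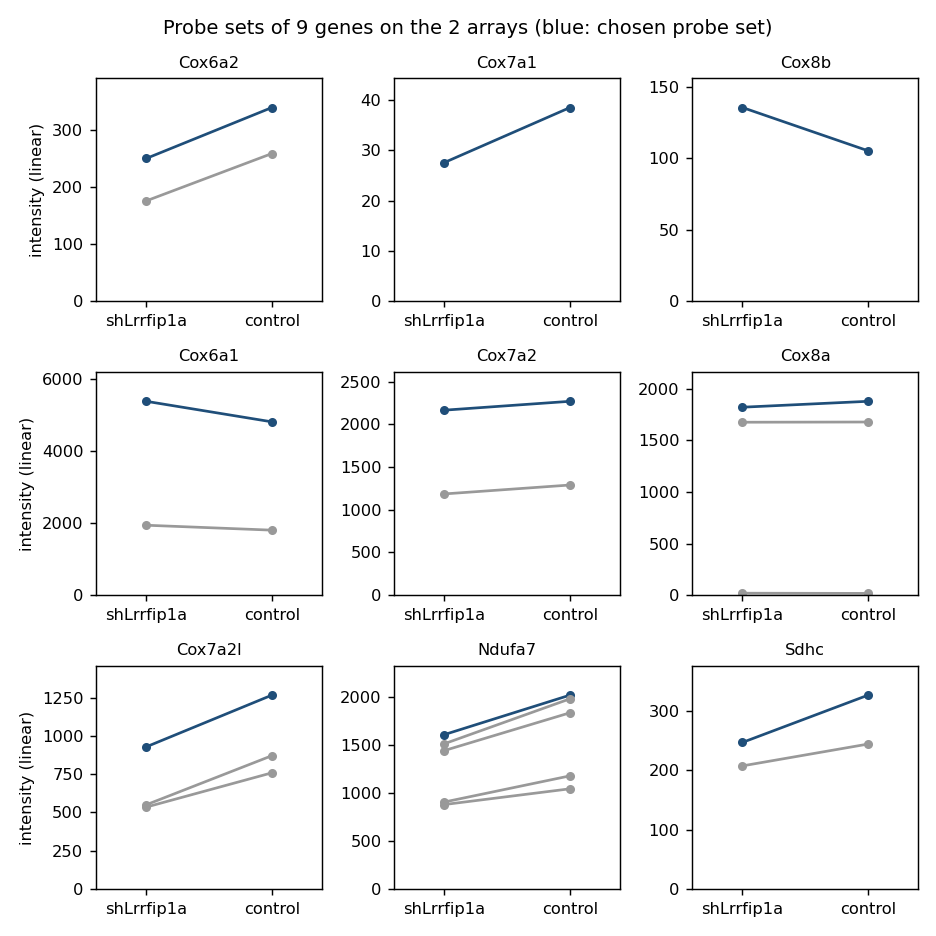
Intensities (linear, from 0) of every probe set of 9 genes on the shLrrfip1a array (left) and the control array (right), with the chosen probe set in blue and the others in grey. The muscle isoforms of complex IV fill the top row, their counterparts of other tissues the middle row, and Cox7a2l, Ndufa7 and Sdhc the bottom row, where every line is lower on the shLrrfip1a array.

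Of 5 further isoforms, 4 were below the filter. Cox4i2, the form of lung that responds to oxygen, read 31.8 in shLrrfip1a and 30.2 in control. Ndufa4l2, a gene known to be induced by hypoxia, read 36.2 in shLrrfip1a and 27.8 in control. Cox6b2 and Cox7b2, known from testis, read 27.9 and 6.12 in shLrrfip1a and 30.7 and 5.48 in control. Cox8c, whose human counterpart is known from testis, was the exception at 180 in shLrrfip1a and 143 in control (0.31), although its second probe set was dim on both arrays (31.2 in shLrrfip1a, 25.9 in control). No detection calls were used, so none of these genes can be called absent.

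Cox7a2l had the lowest difference of all members. It encodes a relative of the Cox7a subunits that is known to join complexes III and IV in supercomplexes. On its 3 probe sets Cox7a2l read 928, 535 and 549.8 in shLrrfip1a, against 1267, 759 and 871 in control, with differences of -0.44, -0.49 and -0.65. All 3 were lower, with an SD over probe sets of 0.11. The third was the 1 member probe set at least 1.5-fold lower, beside 2.32% of all 19456 probe sets with 1 symbol above the filter. No member probe set was 1.5-fold higher, beside 2.20% of all of them. Cox7a2l minus Cox7a2 was -0.37. Under scaling to all spike-in controls, Cox7a2l, Sdhc and Ndufa7 differed by -0.26, -0.21 and -0.14.

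Promoters are shown for the isoform genes Cox7a1 and Cox7a2, Cox8b and Cox8a, and Cox6a1, so that the muscle and common forms can be read beside each other, and for Cox7a2l, the member with the lowest difference. Cox6a2 is named only. The sequences are the 250 bases before the start of the gene, from RefSeq on build GRCm38.p6, printed in the direction of transcription. Capitals mark matches, on either strand, to the letters GCATGCG of NRF1 and CCGGAAG of GABPA and other ETS factors, both known from promoters of respiratory genes, AAGATGG of YY1, and the CAGCTG form of the E-box that myogenic factors bind, and TATAAA of the TATA box.
Cox6a1, chr5:115348959-115349208, minus strand: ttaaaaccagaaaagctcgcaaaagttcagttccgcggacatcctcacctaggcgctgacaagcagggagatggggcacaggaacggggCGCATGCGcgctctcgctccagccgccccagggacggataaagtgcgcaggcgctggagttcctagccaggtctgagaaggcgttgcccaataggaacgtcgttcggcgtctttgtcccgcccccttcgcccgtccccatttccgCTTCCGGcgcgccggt
Cox7a1, chr7:30183921-30184170, plus strand: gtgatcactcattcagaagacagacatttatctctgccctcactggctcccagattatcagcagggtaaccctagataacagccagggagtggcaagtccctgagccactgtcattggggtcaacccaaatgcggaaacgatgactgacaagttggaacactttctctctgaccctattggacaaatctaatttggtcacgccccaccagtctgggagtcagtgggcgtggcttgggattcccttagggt
Cox7a2, chr9:79759854-79760103, minus strand: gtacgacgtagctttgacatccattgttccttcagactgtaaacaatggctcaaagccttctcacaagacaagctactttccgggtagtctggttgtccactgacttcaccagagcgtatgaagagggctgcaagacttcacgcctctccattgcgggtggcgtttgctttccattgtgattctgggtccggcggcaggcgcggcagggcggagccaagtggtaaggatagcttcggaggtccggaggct
Cox8b, chr7:140900447-140900696, minus strand: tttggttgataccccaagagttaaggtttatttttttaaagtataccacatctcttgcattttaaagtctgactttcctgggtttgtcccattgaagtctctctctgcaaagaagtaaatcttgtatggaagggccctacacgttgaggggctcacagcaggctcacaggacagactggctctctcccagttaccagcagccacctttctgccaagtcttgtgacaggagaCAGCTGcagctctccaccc
Cox8a, chr19:7217617-7217866, minus strand: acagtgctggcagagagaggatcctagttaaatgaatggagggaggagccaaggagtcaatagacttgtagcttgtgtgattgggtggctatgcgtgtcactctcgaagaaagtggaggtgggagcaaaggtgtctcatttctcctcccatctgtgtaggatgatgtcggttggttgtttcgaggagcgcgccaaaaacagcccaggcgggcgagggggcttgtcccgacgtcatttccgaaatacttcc
Cox7a2l, chr17:83514334-83514583, minus strand: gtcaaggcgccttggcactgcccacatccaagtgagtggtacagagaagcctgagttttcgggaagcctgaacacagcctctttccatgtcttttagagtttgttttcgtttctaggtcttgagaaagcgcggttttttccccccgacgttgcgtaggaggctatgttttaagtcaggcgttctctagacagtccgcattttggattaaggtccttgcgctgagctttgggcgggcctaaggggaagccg
Cox6a1 carries 2 NRF1 matches, which overlap on opposite strands, and 1 ETS match in this stretch. Within the printed bases the muscle gene Cox8b carries an E-box. Cox7a1, Cox7a2l and the common forms Cox7a2 and Cox8a carry none of these letters there. The longer windows counted below, which run past the start, add the ETS letters in Cox8a and the TATA letters in Cox8b. Which of these genes carry a match thus depends on the window. Whether the matches follow the split into muscle and common forms, or the differences between the arrays, was not tested. GC content was 62.8% in Cox6a1, 51.2% in Cox7a1, 54.8% in Cox7a2, 47.2% in Cox8b, 52.8% in Cox8a and 52.0% in Cox7a2l.

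Promoters were found for 74 of the 91 members, and the first start listed for a gene was used. In windows of 250 bases before and 50 after the start, the NRF1 letters were present in 14.9% of the 74 member promoters and in 3.64% of the promoters of 27025 genes. The ETS letters were in 24.3% of the members' windows and 9.12% of all windows, and the YY1 letters in 13.5% and 6.48%. The E-box letters ran the other way, at 8.11% of the members' windows and 16.1% of all windows, and the TATA letters were in 10.8% and 14.2%. Member promoters were also richer in GC, with a median of 57.6% over the 250 bases, beside 52.0% for all genes. A match describes the letters and is not a bound site.

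Complex V, the ATP synthase, had 17 genes, all above the filter, with a median of 0.05, 12 higher and 5 lower. Relative to all genes this median was higher by 0.04 under the deposited scaling, 0.02 under quantile and 0.04 under loess normalization. The scalings by a constant keep that gap nearly as it is by construction. The complex V median itself turned to -0.01 under median centring. None of the 17 reached 0.25. The F1 part, the catalytic head with its central stalk, was read by 5 genes with a median of 0.05. Its alpha subunit Atp5a1 read 2599 in shLrrfip1a and 2292 in control (0.18), but its 3 probe sets ran between -0.09 and 0.18. The beta subunit Atp5b, which holds most of the catalytic site, read 2531 in shLrrfip1a and 2425 in control (0.06). The delta subunit Atp5d went the other way, with 1931 in shLrrfip1a and 2289.7 in control (-0.24), and -0.21 on its second probe set.

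The peripheral stalk and membrane part of complex V had 12 genes with a median of 0.05. The proton-carrying c ring is encoded by Atp5g1, Atp5g2 and Atp5g3, which make the same mature protein, and the chosen probe sets differed by 0.07, 0.03 and 0.06. Atp5g3 read 4313 in shLrrfip1a and 4130.5 in control. Atp5k, the e subunit of the membrane part, had the highest difference of the complex, with 1793 in shLrrfip1a and 1526 in control (0.23), and all 3 probe sets were higher (0.06 to 0.23). The peripheral stalk genes were lower instead: Atp5h read 1825 in shLrrfip1a and 2057 in control (-0.17), Atp5o 1336 in shLrrfip1a and 1476 in control (-0.14), and Atp5pb 1491 in shLrrfip1a and 1543 in control (-0.05). Each of these 3 was lower on both of its probe sets, while the fourth stalk gene, Atp5j, was higher (2256 in shLrrfip1a and 2121 in control, 0.09).

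The name rule also takes in 8 Ndufaf genes, which encode assembly factors of complex I and not subunits. Their median was -0.05, with 3 higher and 5 lower. Ndufaf5, an assembly enzyme acting on Ndufs7, read 89.1 in shLrrfip1a and 111 in control (-0.27). Ndufaf8, known in human cells to stabilise NDUFAF5, read 400.0 in shLrrfip1a and 349.5 in control (0.19). The remaining 6 lay between -0.14 and 0.11. Without the assembly factors and Cox7a2l, the 75 subunits above the filter had a median of -0.02.

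**Figure D4:**
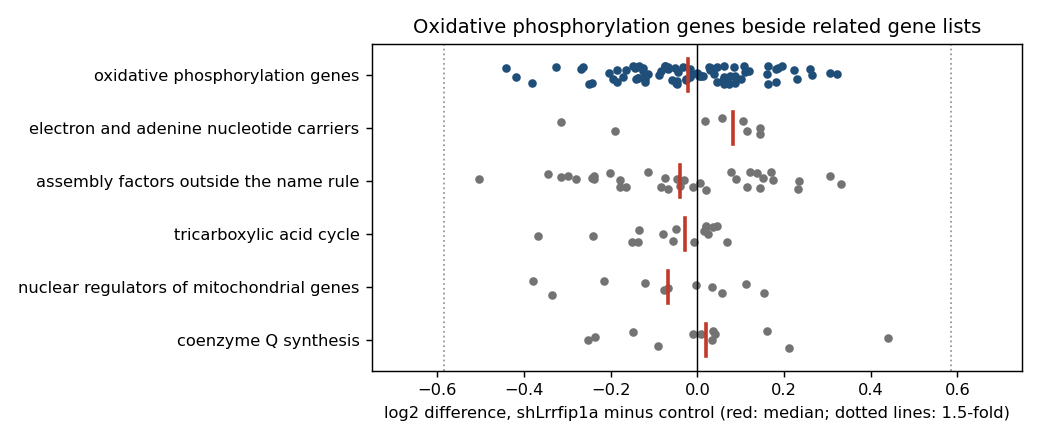
Log2 difference, shLrrfip1a minus control, of the oxidative phosphorylation genes (blue) and of 5 related gene lists (grey), 1 point per gene above the level filter. Red lines are medians, which lie between -0.07 and 0.08, and no point lies outside the dotted lines at 1.5-fold.

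None of the genes above the filter in 5 lists of genes around the complexes passed 1.5-fold. Of 9 carrier genes, 8 lay above the filter with a median of 0.08. Cytochrome c (Cycs) read 1504 in shLrrfip1a and 1485 in control (0.02), and the ADP/ATP carrier of heart and muscle, Slc25a4, read 2804 in shLrrfip1a and 2588 in control (0.12). The largest differences among the carriers were those of Etfdh, which feeds electrons from fatty acid oxidation to coenzyme Q (-0.31), the ATP synthase inhibitor Atpif1 (-0.19) and the phosphate carrier Slc25a3 (0.14). Of 39 assembly factors outside the name rule, 35 lay above the filter with a median of -0.04, led by Coa7 (132 in shLrrfip1a, 193 in control, -0.50), Timmdc1 (-0.34) and Sco2 (0.33).

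The 16 tricarboxylic acid cycle genes above the filter had a median of -0.03, with Idh2 (441 in shLrrfip1a, 573 in control, -0.37), the citrate synthase gene Cs (-0.24) and Idh3g (-0.15) the most different. Coenzyme Q synthesis had a median of 0.02 over 12 genes, with Coq8a at 0.44, Pdss2 at -0.25 and Coq8b at -0.24. Of 14 nuclear regulators of mitochondrial genes, 11 were above the filter, with a median of -0.07, 4 higher and 7 lower. The most different were Ppard (105 in shLrrfip1a, 142 in control, -0.38), the mitochondrial rRNA methylase gene Tfb1m (-0.34) and Tfam, which packages mitochondrial DNA (-0.22). The coactivator Ppargc1a lay below the filter, with 24.2 in shLrrfip1a and 38.4 in control. Nrf1, Gabpa and Yy1, whose motifs are given above, differed by -0.08, -0.12 and 0.03.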

How the data were processed

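The authors deposited a linear intensity with a floor of 1 for each of 45101 probe sets on each array. The medians were 53.5 on the shLrrfip1a array and 51.4 on the control array. How the probes were summarised and scaled is not given in the sources used here, and the deposited scaling was kept. The number of arrays limits the precision. Per the labels' protocols, biotin-labelled cRNA was made from 6 ug of total RNA extracted with Trizol.

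Genes were named from the platform annotation where a probe set had 1 symbol. All 91 members matched the GRCm38.p6 gene table by identifier with the same symbol. Values were log2(intensity + 16). A gene was kept when its brightest probe set exceeded the median probe set in mean log2 level. No test was run. Members and gene lists were chosen with earlier results of these data known, and every member may be named. Of each other list the 3 most different genes were named, with Ppargc1a and Slc25a4. Cycs, Nrf1, Gabpa, Yy1 and the marker genes named were added after their values were seen. Alternatives were other scalings, filters, pseudocounts and probe set rules. The procedure was tested on simulated data. Python 3.11.15, numpy 2.4.6, pandas 2.3.3, scipy 1.17.1, statsmodels 0.14.6 and matplotlib 3.10.9 were used.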

Additional observations from a re-analysis of the deposited data

How the results depend on the processing

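No paired analysis was possible because there is 1 array a group, and none can be left out. No member reached 1.5-fold or 2-fold on its gene value under any of the 12 alternatives run on these counts. Scaling to the spike-in controls, of which 38 of 42 were lower in shLrrfip1a, moved the median of all genes to 0.17, and to 0.19 with the 24 B. subtilis controls alone. The member medians moved with it, to 0.16 and 0.18 over all members under the all-control and B. subtilis scalings, in that order, 0.13 and 0.15 for complex I, 0.0501 and 0.0677 for complex II, 0.19 and 0.21 for complex III, 0.17 and 0.19 for common complex IV subunits and 0.23 and 0.25 for complex V. Under the same scalings Cox6a2 came to -0.24 and -0.23, Cox7a1 to -0.20 and -0.19, and Cox8b to 0.49 and 0.505. Cox7a1 was -0.47 and -0.16 with pseudocounts of 1 and 64. Members at least 0.25 higher, 4 as reported, numbered 23 and 27 under these 2 scalings (37.2% and 39.8% of all genes), 7 with the E. coli and P1 controls (21.0%), 2 with median centring (10.9%), 2 with the 75th percentile filter (13.7%) and 1 with a pseudocount of 64 (9.92%). Members at least 0.25 lower, 6 as reported, numbered 1 and 0 under the 2 scalings (5.58% and 5.07% of all genes) and 10 with median centring (19.9%). A multiplied scaling shifts all bright genes alike by construction. Leaving out probe sets that can bind related transcripts, an alternative added after seeing the data, gave a median of 0.00 over members and -0.01 for complex I, as did the mean over probe sets. Under the other settings without spike-in scaling, the median over members stayed between -0.08 and 0.00.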

Other observations

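Probe sets that carry several gene symbols were left out of the comparison. Of 10 that name a gene with a symbol of the rule, members or not, 6 lay above the level filter and none of these 6 reached 0.25. A probe set shared by Ndufs6 and Ndufs6b read 784 in shLrrfip1a and 932 in control (-0.245). That of Ndufa11 and Ndufa11b read 627 in shLrrfip1a and 693 in control (-0.14). A brighter probe set of Ndufb4 and its copies Ndufb4b and Ndufb4c read 1254 in shLrrfip1a and 1337 in control (-0.09), where the probe set of Ndufb4 alone read 14.6 in shLrrfip1a and 16.2 in control.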
